A study of Drosophila melanogaster with 9 samples.

Results

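Calx, Cpn, Cam, SERCA, PMCA, Itpr and RyR were chosen by their known roles in moving, binding or releasing calcium. All 7 were among the 13947 genes with counts. The data were nuclear RNA-seq counts from photoreceptors in which Set2, the methyltransferase that adds the last methyl group of H3K36me3, was targeted by RNA interference (shSet2), in 3 replicate libraries made from 10 ng of RNA each. The flies carried w1118 (w in the labels), the nuclear envelope tag UAS-GFP-Msp300KASH in attP2, the rh1-GAL4 driver with ry506, and the Set2 hairpin TRiP.HMJ02076 in attP40 from a y1 v1 line, so tag and hairpin were both limited to cells in which the Rh1 promoter is active, the outer photoreceptors. Male flies were kept at 25 °C in 12 h of light and 12 h of dark and collected 10 days after eclosion at zeitgeber time 6, that is 6 h after lights on. A single hairpin line was used, and its driver turns on only around the end of pupal development. Counts of photoreceptors with the control hairpin against mCherry were not analysed here, so each value below describes shSet2 photoreceptors and none is an effect of Set2.

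In the fly eye, light activates a phospholipase C cascade that opens TRP channels, and calcium enters the rhabdomere, the stack of microvilli that holds the rhodopsin. The calcium then acts on the cascade itself through calmodulin and other binding proteins, is held by buffers such as calphotin, and is carried out of the cell by sodium-calcium exchange and by plasma membrane pumps. A separate route runs through the endoplasmic reticulum, which SERCA fills and from which the inositol trisphosphate receptor and the ryanodine receptor release calcium.

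The 3 libraries held 3657491 to 4960498 counts. Levels are given as CPM, the counts a gene would have in a library of 1000000 counts, on totals scaled by edgeR's TMM method. The detection floor of 3 counts came to between 0.605 and 0.820 CPM on the unscaled totals. Set2 itself was counted 313, 370 and 369 times in the libraries of replicates 1, 2 and 3. This gave 85.8 ± 11.6 CPM (SD, n = 3), and without control libraries the size of the knockdown was not measured. All 8 photoreceptor markers, among them ninaE (the Rh1 opsin), trp and chp, reached 10 counts in each of the libraries, and their summed level was 63251 to 66226 CPM. Of 27 markers of muscle, glia, other neurons, fat body and hemocytes, 19 passed the same minimum, which 41.6% of the 13947 genes passed. All 4 opsin genes of inner photoreceptors (Rh3, Rh4, Rh5 and Rh6) passed this minimum as well, with a summed level of 36.5 to 51.2 CPM. The flight muscle genes Act88F and TpnC4 had 0 counts in each library. Others were well counted, such as sls of muscle (270, 107 and 121 counts) and apolpp of the fat body, at 646 CPM on average. The labels number the replicates but do not say whether they came from separate groups of flies, so the SDs may be partly technical.

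All 7 calcium genes reached the same minimum of 10 counts in each library, whereas 41.6% of the 13947 genes did. Together they took 0.951%, 0.911% and 0.943% of the counts of replicates 1, 2 and 3. Within that sum, Calx held 47.6% ± 1.6 (SD, n = 3), Cam 26.5% ± 2.1 and PMCA 17.0% ± 2.1, and RyR held 0.260% ± 0.058. These shares follow gene length as well as transcript level.

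**Figure D1:**
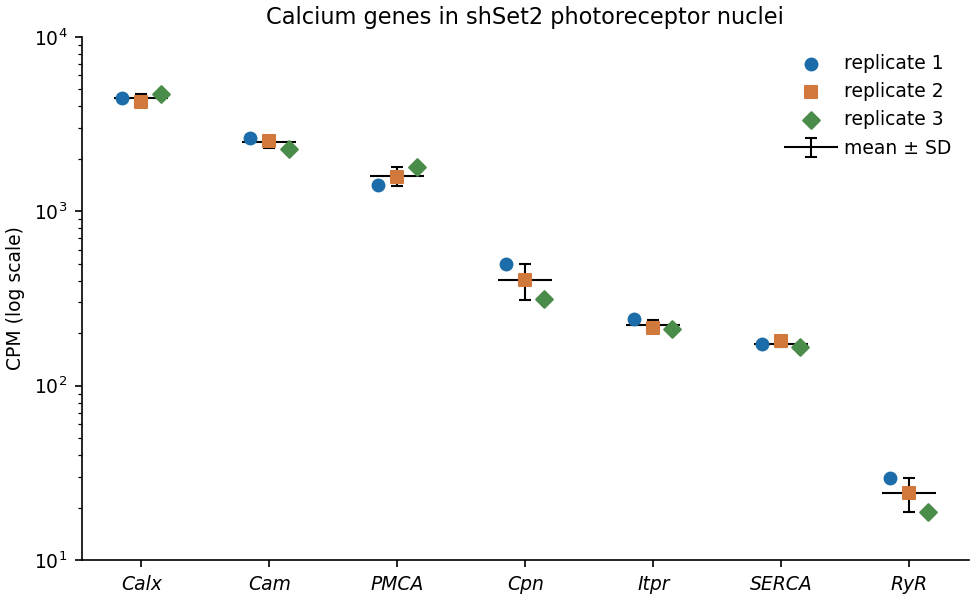
Level of each of the 7 genes in CPM on a log axis, with a marker for each of the 3 shSet2 libraries and a bar for the mean ± SD. Calx lies highest at 4227 to 4673 CPM and RyR lowest at 18.8 to 29.5 CPM, and the markers of Cpn and RyR lie furthest apart within a gene; heights of different genes also reflect their lengths.

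Calx (FBgn0013995) encodes the sodium-calcium exchanger of the plasma membrane, which carries calcium out of the photoreceptor after the light response. It lies on chromosome 3R from 20978183 to 21015613 in the Release 6 plus ISO1 MT assembly. It had 16440, 15979 and 23061 counts in replicates 1, 2 and 3, or 4454, 4227 and 4673 CPM. These values differed by 1.11-fold at most, and the mean was 4452 ± 223 CPM (SD, n = 3). By summed counts Calx was at rank 34 of the 5802 genes with at least 10 counts in every library, the highest of the 7. The coefficient of variation (CV, the SD as a percentage of the mean) was 5.01%, against 0.735% from read counting alone. Both genes that overlap its span, CG43446 and Alp5, had few counts, 0.234% and 0.0847% of the Calx counts.

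PMCA (FBgn0259214), the ATP-driven calcium pump of the plasma membrane, lies on chromosome 4 from 328193 to 358917. It had 5190, 5910 and 8902 counts, or 1406, 1563 and 1804 CPM in replicates 1, 2 and 3. The last was thus 1.28-fold above the first, and the mean was 1591 ± 200 CPM (SD, n = 3), with a CV of 12.6% where counting alone gives 1.22%. The neighbouring gene Rnf11 overlaps the PMCA span over 3195 bp and had 492, 499 and 788 counts, 8.89% of those on PMCA. Whether reads were counted by strand is not given in the sources used here, so reads of the shared stretch cannot be assigned with certainty.

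Cpn (FBgn0261714) encodes calphotin, a calcium-binding protein of photoreceptor cells, and is the shortest of the 7 genes, with 3300 bp on chromosome 3R from 12162887 to 12166186. Its counts were 1850, 1528 and 1541. On the CPM scale this was 501, 404 and 312 in replicates 1, 2 and 3, with a mean of 406 ± 94.5 (SD, n = 3). Replicate 1 stood 1.61-fold above replicate 3, the widest spread of the 7 genes. The CV of 23.3% compares with 2.47% from counting, and 95.5% of the 2307 genes with at least 100 counts in every library had a lower CV. With replicate 1 left out, the mean was 357 CPM. Of the 7 marker lists, the summed glial markers (159, 130 and 112 CPM) and fat body markers (1193, 974 and 898 CPM) had the same order of libraries. Single genes of both lists did not. Lsp2 of the fat body list ran the other way (10.03, 25.4 and 44.8 CPM), and Yp1 had counts in replicate 2 alone. Among the glial genes Eaat1, Gs2 and Gat had the order of Cpn, whereas repo (4.06, 4.23 and 3.04 CPM), moody and wrapper had other orders. The summed markers of muscle, other neurons, hemocytes, inner photoreceptors and photoreceptors had other orders, and the part of other cells in the spread of Cpn was not tested.

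Cam (FBgn0000253) encodes calmodulin, the calcium sensor that binds TRP channels, the myosin NINAC and many kinases and phosphatases. It lies on chromosome 2R from 12259398 to 12278809. It had 9654, 9558 and 11288 counts, or 2616, 2529 and 2288 CPM in replicates 1, 2 and 3. The libraries lay within 1.14-fold of each other, and the mean was 2477 ± 170 CPM (SD, n = 3). Cam was at rank 70 of the 5802 genes by summed counts, and its CV was 6.86%. The non-coding RNA gene lncRNA:CR43900 overlaps the Cam span over 1405 bp and was not found among the genes with counts. Reads of that stretch therefore cannot be assigned with certainty.

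SERCA (FBgn0263006) encodes the only SERCA-type pump of the fly, which returns calcium from the cytosol to the endoplasmic reticulum. It lies on chromosome 2R from 23925077 to 23935884. It had 639, 678 and 823 counts, and 173, 179 and 167 CPM. This was the most even of the 7 genes, with a mean of 173 ± 6.29 CPM (SD, n = 3) and a CV of 3.63%, close to the 3.74% that counting alone gives. A gene that lies within its span, CG2812, had 0.467% of the SERCA counts.

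Itpr (FBgn0010051), the inositol trisphosphate receptor, is the release channel that phospholipase C products open. It lies on chromosome 3R from 5517117 to 5539411. Its counts of 890, 809 and 1048 gave 241, 214 and 212 CPM, so that replicate 1 was above the other libraries by 1.14-fold at most. The mean was 223 ± 16.2 CPM (SD, n = 3), and the CV of 7.26% was above the 3.30% from counting. The glutamate receptor gene Nmdar1 overlaps 6212 bp of the Itpr span and had 11, 13 and 16 counts.

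RyR (FBgn0011286), the ryanodine receptor, is the calcium release channel best known from muscle. It lies on chromosome 2R from 8860364 to 8888097. It had 109, 92 and 93 counts, the lowest of the 7 in each library, and 29.5, 24.3 and 18.8 CPM in replicates 1, 2 and 3. Replicate 1 was 1.57-fold above replicate 3, and the mean was 24.2 ± 5.34 CPM (SD, n = 3). The CV was 22.0%, against 10.1% from counting. As a share of all counts, RyR took 0.00298% of replicate 1 (95% Wilson interval 0.00247% to 0.0036%) and 0.001875% of replicate 3 (0.00153% to 0.0023%). These intervals, which cover counting error only, did not overlap. The 8 muscle markers summed to 142, 48.1 and 51.3 CPM in replicates 1, 2 and 3, with 4 of the 8 at 10 counts or more in every library and Mhc, the muscle myosin heavy chain, at 43.9, 11.6 and 15.4 CPM. RyR and the summed muscle markers shared their highest library, though not the order of the other two. Within the muscle list, sls (73.2, 28.3 and 24.5 CPM) and Mf (10.03, 2.65 and 2.43 CPM) had the order of RyR. Mhc, up, wupA and Mlc2 were lowest in replicate 2 instead, and Act88F and TpnC4 had no counts. RyR had the same order of libraries as the summed glial and fat body markers given above for Cpn. The part of RNA from any of these cells in the RyR counts was not tested. In bulk nuclei, a share of other cells and a low level in each photoreceptor cannot be told apart.

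For comparisons between genes, CPM were divided by the length of the gene span in kb. Nuclear RNA holds intronic as well as spliced reads, and whether the intronic ones were counted is not given in the sources used here. If they were not, the span understates the level of genes with long introns. On this scale Cam was at 128 ± 8.76 CPM per kb (SD, n = 3), Cpn at 123 ± 28.6 and Calx at 119 ± 5.96. The ranges of these 3 genes overlapped, so their order was not resolved. PMCA followed at 51.8 ± 6.52 CPM per kb, SERCA at 16.02 ± 0.582, Itpr at 9.98 ± 0.725 and RyR at 0.874 ± 0.193. From Calx downward no neighbours in this order overlapped, and each gene was above the next in 3 of 3 libraries. The step from SERCA to Itpr rests on the division by span. In CPM alone Itpr (241, 214 and 212) was above SERCA (173, 179 and 167) in each library. The place of Cpn above PMCA rests on that division too. In CPM alone Cpn (501, 404 and 312) was below PMCA (1406, 1563 and 1804) in each library. The overlap of Cam, Cpn and Calx was likewise seen per kb only. In CPM their ranges did not overlap, with means of 2477, 406 and 4452. The median of the 7 genes was 51.8 CPM per kb, against 5.39 over the 5758 genes with a span and at least 10 counts in every library. RyR alone was below that median, at rank 5244.

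Within-library ratios, which do not depend on the scaling of the totals, were taken for 4 pairs of genes with related roles. Of the store release channels, Itpr was 10.2, 10.9 and 14.02 times RyR per kb in replicates 1, 2 and 3. Of the pumps, SERCA was at 0.350, 0.326 and 0.263 times PMCA. Of the routes out of the cell, Calx was 2.60, 2.22 and 2.13 times PMCA. These 3 pairs kept their direction in every library, and within each of them the ratio spanned 1.38-fold at most. Among the binding proteins, Cpn was at 1.13 times Cam in replicate 1 and at 0.940 and 0.803 times in replicates 2 and 3, so no direction held on this scale. That rests on the division by span: in CPM alone, Cpn was at 0.192, 0.160 and 0.137 times Cam. With 3 libraries a two-sided exact sign-flip permutation test cannot go below p = 0.25, the value that the first 3 pairs reached, and it gave p = 0.75 for Cpn and Cam.

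**Figure D2:**
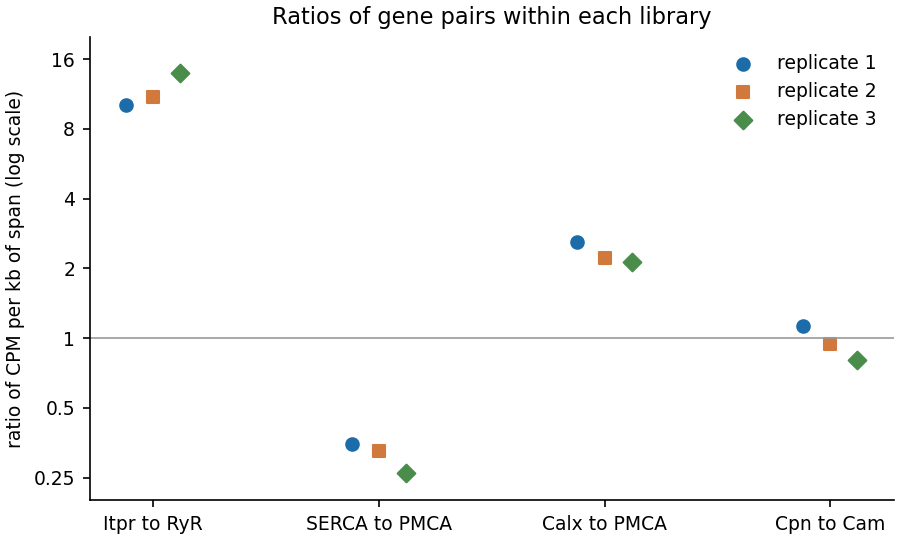
Ratio of CPM per kb of gene span within each library for the 4 pairs, on a log axis with a line at 1 and a marker for each of the 3 libraries. Itpr to RyR lies at 10.2 to 14.02, SERCA to PMCA at 0.263 to 0.350 and Calx to PMCA at 2.13 to 2.60, whereas Cpn to Cam lies on both sides of 1.

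The 7 genes did not all vary in the same direction between libraries. On the log2 scale, Cpn was at 0.33 relative to its own mean in replicate 1 and at −0.35 in replicate 3, and RyR was at 0.31 and −0.34. Cam and Itpr were also highest in replicate 1 and lowest in replicate 3, by less, with Cam at 0.08, 0.03 and −0.11 and Itpr at 0.12, −0.05 and −0.06. PMCA went the other way, at −0.17 in replicate 1 and 0.19 in replicate 3. Calx was at 0.0021 in replicate 1, −0.07 in replicate 2 and 0.07 in replicate 3, and SERCA stayed between −0.05 and 0.05. The median CV of the 7 genes was 7.26%, beside 13.5% over the 5802 genes with at least 10 counts in every library and 8.63% over the 2307 with at least 100. Genes with more counts have a smaller counting error, so the second value is the closer one for the 6 genes that reached 100 counts in every library, all except RyR.

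**Figure D3:**
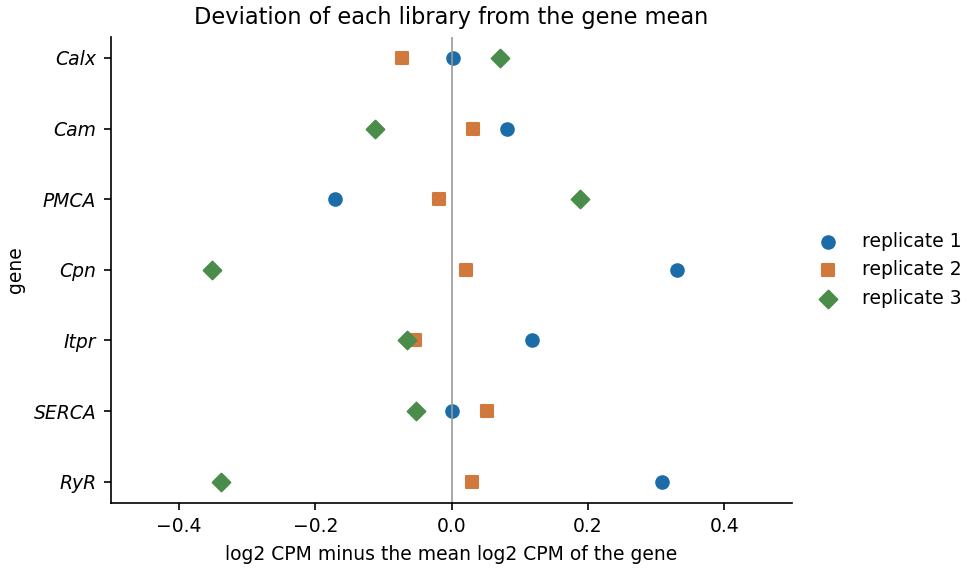
Log2 CPM of each library minus the mean log2 CPM of the gene, with 1 row per gene and a marker for each of the 3 libraries. Cpn and RyR lie high in replicate 1 (0.33 and 0.31) and low in replicate 3 (−0.35 and −0.34), PMCA lies the other way, and SERCA stays within −0.05 to 0.05.

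**Figure D4:**
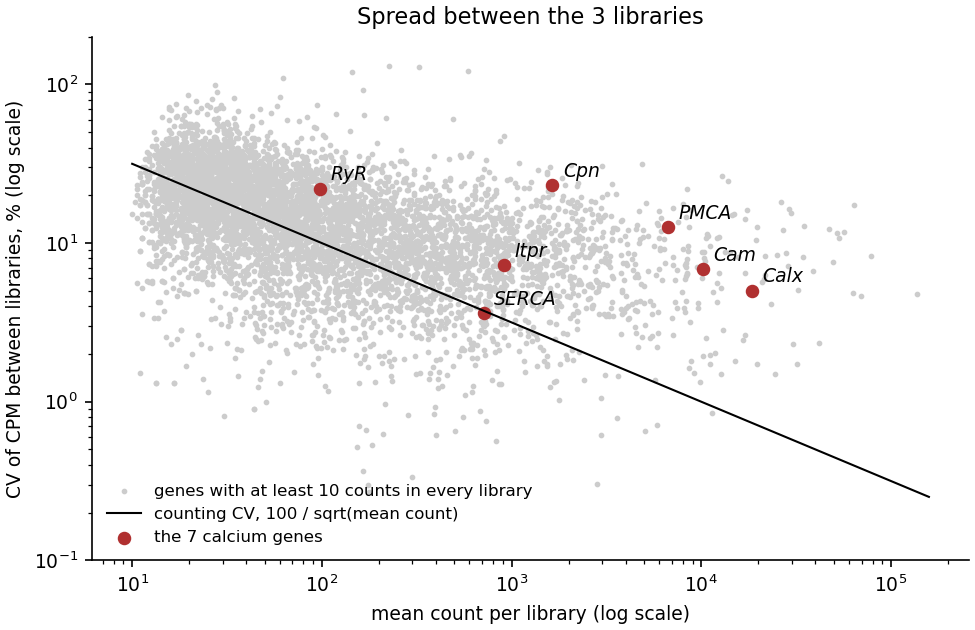
CV of CPM between the 3 libraries against the mean count per library, both on log axes, for the 5802 genes with at least 10 counts in every library (grey), with the counting CV as a line and the 7 calcium genes in red. SERCA lies on the line (3.63% against 3.74%), and Cpn lies far above it (23.3% against 2.47%).

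The genes nearest to each of the 7 in level were found by the Euclidean distance of log2(CPM per kb + 1) over the 3 libraries. With 3 libraries this is a likeness of level and says little about a shared pattern. For Calx they were rdgB (distance 0.0578), the phosphatidylinositol transfer protein of the photoreceptor, and CG4294. For Cam they were rdgA (0.071), the diacylglycerol kinase of phototransduction, and the syntaxin gene Syx1A. For PMCA they were the protein kinase C gene Pkc53E (0.0772) and CG14591. Cpn had no gene within 0.1, and its nearest were Cam (0.368) and stj (0.399), which encodes an accessory subunit of voltage-gated calcium channels. SERCA had 13 genes within 0.1, led by Cand1 and CG10492, and RyR had 10, led by CG6023 and Cyp4g15. At 0.874 CPM per kb, RyR lay below the added 1, which shrinks distances at low levels. Its 10 genes are thus not on a par with the numbers for the other genes. The nearest genes to Itpr were CG7766 and atos.

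Of 29 other genes of calcium handling that were listed by role, 28 were in the table and 21 of these had at least 10 counts in every library. The median level of the 28, taken with no count minimum, was 4.66 CPM per kb. Of the 28, 13 were above the 5.39 CPM per kb median of the 5758 genes, against 6 of the 7. The 5758 genes and the 7 all had at least 10 counts in every library, so the 28 are set against filtered genes. The 3 highest of the 28 were ninaC at 1178 ± 59.8 CPM per kb (SD, n = 3), CaMKI at 243 ± 30.8 and Cnx99A at 170 ± 51.9. The first encodes the calmodulin-binding myosin of the rhabdomere, the next a calmodulin-dependent kinase, and Cnx99A a calnexin, a calcium-binding chaperone of the endoplasmic reticulum that is needed for Rh1 to mature. Cnx99A varied between libraries, at 817, 935 and 494 CPM in replicates 1, 2 and 3, so that replicate 3 was the lowest. Of the other calmodulin-dependent genes, 7 passed the minimum beside ninaC, and the calcineurin subunit gene CanA1 had 4, 2 and 0 counts.

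Each of the other routes had a member above the 5.39 CPM per kb median, except the cytosolic binders. The genes named from here on, unless they were under 10 counts in a library, were picked for their role after their values had been seen. CG1090, a predicted potassium-dependent sodium-calcium exchanger, was at 59.8 ± 5.31 CPM per kb (SD, n = 3), near the 51.8 of PMCA, while Nckx30C of the same family was at 2.60 ± 0.318 and zyd had 11, 7 and 13 counts. Nckx30C has a long span of 34984 bp, and in CPM alone it was at 90.9 against 417 for CG1090. SPoCk, a pump of the secretory pathway, was at 17.8 ± 0.878 CPM per kb, near the 16.02 of SERCA. The likeness of CG1090 to PMCA and of SPoCk to SERCA rests on the division by span. In CPM alone, CG1090 was at 417 and PMCA at 1591, and SPoCk was at 681 and SERCA at 173. SclA and SclB, which encode the sarcolamban micropeptides that inhibit SERCA in muscle, had 0 counts in each library. They have the same span of 3913 bp in the annotation, and how the counter treats reads shared by overlapping genes is not given, so these zeros set no limit on their level.

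For refilling of the store, the plasma membrane channel gene Orai was at 37.5 ± 5.10 CPM per kb (SD, n = 3) and its sensor Stim at 8.11 ± 0.450. All 4 genes of this group passed the minimum. Of the mitochondrial genes, 2 of 3 did: Letm1, which encodes an inner membrane protein linked to cation exchange, was at 10.8 ± 1.502 CPM per kb and the uniporter pore gene MCU at 0.398 ± 0.0606, while EMRE had 15, 7 and 17 counts. MCU has a span of 43203 bp, so its level per kb is among those that long introns could lower. Of the cytosolic binders, Cbp53E (calbindin) was at 0.544 ± 0.130 CPM per kb, Scp1 had 4, 0 and 5 counts and Scp2 had 21, 7 and 20. Against the 123 ± 28.6 of Cpn and the 128 ± 8.76 of Cam, this group was low in all 3 libraries.

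**Figure D5:**
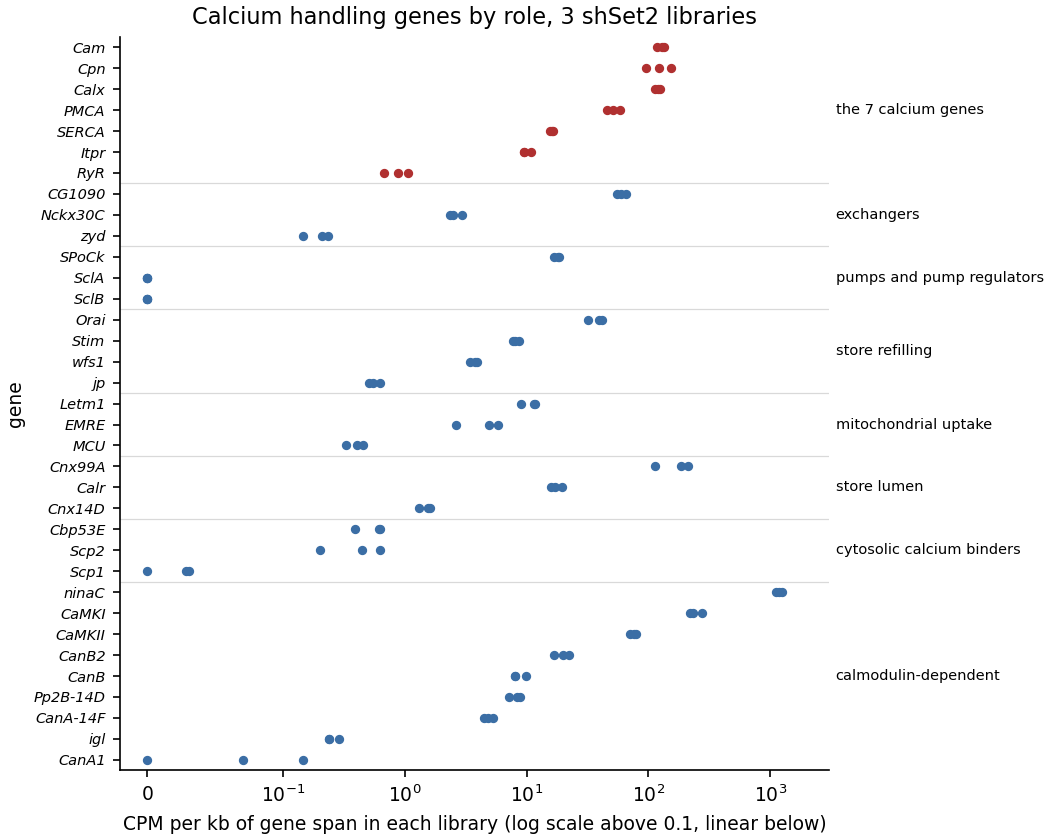
CPM per kb of gene span in each of the 3 libraries for the 7 calcium genes (red) and the 28 other calcium handling genes in the table (blue), grouped by role, on an axis that is logarithmic above 0.1 and linear below. The values range from 1178 CPM per kb on average for ninaC to 0 for SclA and SclB, and the cytosolic calcium binders lie to the left of Cpn and Cam.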

How the data were processed

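Nuclear RNA-seq libraries of 3 shSet2 photoreceptor samples were used, 1 group of replicates 1 to 3. The authors deposited whole-number counts per gene for 13947 FlyBase identifiers, without normalization. The submitters' processing notes name Trimmomatic, Bowtie2, STAR, SAMtools, deepTools and DESeq2 and the builds dm6 and BDGP6. The counter, its strandedness and its handling of introns are not given in the sources used here. A row with no gene (1 in all, without counts) was left out, and the table holds 0 columns of other samples. ATAC-seq samples were not analysed here.

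CPM were computed on totals scaled by TMM factors from genes with at least 10 counts in every library (edgeR 4.0.16, R 4.3.3). DESeq2 1.42.0 size factors, unscaled totals, count minimums of 1, 50 and 100 and each replicate left out were the alternatives. Other steps used Python 3.11.15, pandas 2.3.3, numpy 2.4.6 and scipy 1.17.1. Symbols were matched for 13884 identifiers and spans for 13871 from the Release 6 plus ISO1 MT gene table, whose coordinates are given. The planned coding lengths and promoter motif search were replaced by gene spans and not run, respectively. Scaling and CV were tested on simulated counts. Totals of 3657491 to 4960498 counts set the precision.

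Named genes were the 7 calcium genes, Set2, the marker lists, the 2 nearest genes to each of the 7, and, of the 29 other calcium genes, the 3 highest, the 3 lowest and any under 10 counts in a library. CG1090, Nckx30C, SPoCk, Orai, Stim, Letm1, MCU and Cbp53E, and genes that overlap the 7, fall outside this rule and were named after their values were seen. Camta of that list was not analysed here, and a further gene is not reported here. The 7 genes and the lists were chosen with earlier results of these data known.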

Additional observations from a re-analysis of the deposited data

How the results depend on the processing

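No paired analysis was possible because 1 group alone has counts here. Planned coding lengths were not used, so gene span was the length throughout. None of the 14 values of the 7 genes under another scaling and none of the 21 with a replicate left out moved the mean CPM by over 1 SD. That limit says little about robustness. Leaving out 1 of 3 values can hardly shift a mean by 1 SD, and all scalings share the same geometric mean of the totals. The largest shifts were 0.198% under another scaling and 12.2% with a replicate left out, for Cpn without replicate 1. The median CV of the 7 genes was 5.87% with DESeq2's size factors and 7.29% to 8.89% with a replicate left out, against 7.26%, and the cause was not tested. The median CV over all genes was 26.5% with no count minimum. The log2 ratio of Cpn to Cam per kb was −0.077 and reversed to 0.042 without replicate 3, with a range of −0.203 to 0.042 over the libraries left out, and was −2.63 with no length correction. Without that correction SERCA to PMCA went from −1.69 to −3.19, Itpr to RyR from 3.53 to 3.22 and Calx to PMCA from 1.21 to 1.49; these 3 pairs kept their direction under each alternative run. All 7 genes passed a minimum of 50 counts, and 6 of the 7 passed 100. Of the other calcium genes, 24, 16 and 14 passed minimums of 1, 50 and 100 counts, and 21 to 24 passed 10 with a replicate left out. Depth limits RyR, EMRE, Scp1, Scp2, zyd and CanA1.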
